A study of Mus musculus with 16 samples.

Results

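Expression of 10 genes characteristic of fat cells was examined in biopsies of the mouse ear. The genes, Adipoq, Plin1, Plin4, Fabp4, Cidec, Lep, Retn, Cfd, Pparg and Lpl, were taken as a given list of adipocyte genes, looked up by Ensembl identifier among the 45706 genes of the deposited count table, and all 10 were found. All 10 also passed the filter on low counts, which left 20116 genes for testing. The ears came from 8 male mice of the inbred strain C57Bl/6J, with no treatment or engineered allele named in the labels. Each mouse was clipped at a nominal age of 24 months (exact ages 23.8 to 24.4 months, labelled young) and again at a nominal 30 months (29.0 to 30.1 months, labelled old), 5.0 to 6.3 months later. RNA-seq of these biopsies gave 16 libraries in 8 within-animal pairs, and the mice are named here by the numbers in the sample titles (13, 14, 21, 29, 43, 50, 64 and 75). The earlier clip was taken from the first ear and the later one from the second ear, so the ear and the age cannot be told apart. The pairs address how expression changes with age within an individual.

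Fat cells store triglyceride in a single large droplet coated with perilipins, take up fatty acids that lipoprotein lipase releases from circulating lipoproteins, and secrete hormones such as adiponectin and leptin. The nuclear receptor PPARG switches on most of these genes when a precursor becomes a fat cell, and factors of the C/EBP family act with it. In the skin, fat cells form a layer beneath the dermis, and the ear also holds hair follicles with sebaceous glands, thin muscles and a plate of elastic cartilage.

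In total, 8 of the fat cell genes had an entry among the RefSeq promoters of GRCm38.p6, each spanning 250 bases before to 50 bases after an annotated start. They were searched on both strands for TTGCNNAA, a C/EBP motif, for CCAAT, for AGGTCA, to which nuclear receptors such as PPARG bind, and for a direct repeat of AGGTCA with 1 base between the copies. The promoters of Lep, Plin1 and Adipoq are shown because these genes code for a fat cell hormone, a droplet coat and another hormone, and because the levels of Lep and Adipoq parted in 1 biopsy described further on. Capitals mark TTGCNNAA or CCAAT read on either strand, and each sequence is given 5′ to 3′ on the strand of its gene. Lep lies at chr6:29059971-29060270 (plus strand), Plin1 at chr7:79732727-79733026 (minus strand) and Adipoq at chr16:23146286-23146585 (plus strand).
Lep: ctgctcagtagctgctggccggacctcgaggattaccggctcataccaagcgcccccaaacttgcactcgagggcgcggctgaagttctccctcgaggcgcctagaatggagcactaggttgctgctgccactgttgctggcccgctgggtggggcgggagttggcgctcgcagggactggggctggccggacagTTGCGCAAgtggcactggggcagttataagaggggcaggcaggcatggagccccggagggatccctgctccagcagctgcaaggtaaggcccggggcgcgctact
Plin1: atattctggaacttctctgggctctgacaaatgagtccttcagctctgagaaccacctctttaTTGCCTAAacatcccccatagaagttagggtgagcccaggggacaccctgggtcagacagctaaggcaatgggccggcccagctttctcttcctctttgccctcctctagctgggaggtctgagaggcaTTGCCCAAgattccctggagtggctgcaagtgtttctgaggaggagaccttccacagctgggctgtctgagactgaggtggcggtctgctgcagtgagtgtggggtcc
Adipoq: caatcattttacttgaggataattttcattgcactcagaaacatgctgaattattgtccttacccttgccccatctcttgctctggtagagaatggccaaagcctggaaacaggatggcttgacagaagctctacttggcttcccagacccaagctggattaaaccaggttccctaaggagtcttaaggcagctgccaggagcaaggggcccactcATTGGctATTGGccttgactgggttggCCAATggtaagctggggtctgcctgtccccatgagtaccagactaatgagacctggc

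These 8 genes had 11 entries, since Pparg and Cidec have several. The C/EBP motif was present in 4 of the 11 entries (1 each of Plin1, Cidec, Lep and Pparg) and in 10.8% of all 32851 promoters. Counted from the annotated start, it began at -55 in Lep and at -187 and -58 in Plin1. CCAAT was found in 4 of the 11 entries (of Adipoq, Plin4 and Pparg) and in 37.4% of all promoters, and Adipoq held 3 copies, at -34, -27 and -7. AGGTCA was found in 2 of the 11, both of Pparg, and in 16.3% of all promoters, and the direct repeat, found in 0.0396% of all promoters, was in none of the 11. Such a match describes the letters in this window only.

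The libraries held 22967222 to 36162431 reads on genes (median 28922265). Values are given as CPM, which are counts scaled to a common library total, with library sizes corrected by the trimmed mean of M-values (TMM). At this depth the fat cell genes were counted well, with 21 reads for Retn in its lowest library and 15333 for Fabp4 in its highest. Biopsies of 2 mice stood apart. Mouse 43 had the highest level at 24 months for 9 of the 10 genes and the lowest at 30 months for 8. The 30-month biopsy of mouse 29 had the highest level of all 16 libraries for 7 of the 10. Shares over all genes tested are not given for these counts, so they do not set the fat cell genes apart from other genes.

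Per kilobase of the principal transcript, Fabp4 had the highest level at 24 months, with a median of 79.1 CPM per kilobase and a range of 59.9 to 177 over the 8 mice. Its range did not overlap that of Lpl, with 29.7 (23.8 to 44.0). Adipoq followed with 22.3 (19.3 to 37.2), Plin4 with 17.8 (13.5 to 26.1) and Cfd with 16.3 (5.96 to 74.9). These ranges overlapped from one gene to the next. Pparg was at 14.1 (8.10 to 16.1) and Cidec at 9.09 (7.27 to 12.9), again overlapping. The lowest levels were those of Plin1 at 3.40 (2.43 to 6.53), Retn at 3.30 (1.18 to 8.51) and Lep at 1.83 (1.26 to 4.62), which overlapped each other. The range of Retn reached that of Cidec, and those of Plin1 and Lep did not. The order depends on the transcript taken. When the length was the union of all annotated exons, Fabp4 was at 15.8 CPM per kilobase and Lpl at 11.7. Both then lay below Adipoq at 20.8, Plin4 at 17.7 and Cfd at 16.3. The defining fat cell markers Adipoq, Plin1 and Cidec were counted in every library. Ucp1, the uncoupling protein of brown fat, did not exceed 0.689 CPM. A list of brown and beige fat genes summed to 200 to 309 CPM at 24 months, most of it from Elovl3 (median 198 CPM). In mouse 43 Elovl3 rose from 88.45 CPM to 250 CPM at 30 months, and sebaceous gland markers, described further on, from 733 to 2279 CPM. In mouse 29 Elovl3 rose from 237.9 to 265.5 CPM, while those markers fell from 1721 to 1585 CPM. Which cells Elovl3 came from and which kind of fat the biopsies held were not tested.

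No fat cell gene passed an adjusted p of 0.05 between the ages, and neither did any of the 20116 genes tested (0%) in the edgeR quasi-likelihood fit with a term for each mouse. The log2 fold change, 30 against 24 months, was above 0 for 9 of the 10, beside 52.1% of all genes, and its median over the 10 was 0.36, beside 0.01 over all genes tested. Leaving out mouse 43 gave a median of 0.58 over the 10, leaving out mouse 29 gave 0.24, and leaving out mouse 64 gave 0.25. At an unadjusted p under 0.05, 2 of the 10 were higher at 30 months (Plin4 and Lpl), beside 4.83% of all genes, and 0 were lower, beside 7.37%. DESeq2, with its Wald test, had the same 2 genes at this level, beside 5.3% of all genes, and put 0 of the 10 and 1.2% of all genes past an adjusted p of 0.05. Levels were higher at 30 months in at least 7 of the 8 mice for 4 of the 10 (Fabp4, Retn, Cfd and Lpl), beside 6.53% of all genes. In a bulk biopsy, a different number of fat cells, a different amount of these transcripts per fat cell and a part made by other cells cannot be told apart.

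**Figure D1:**
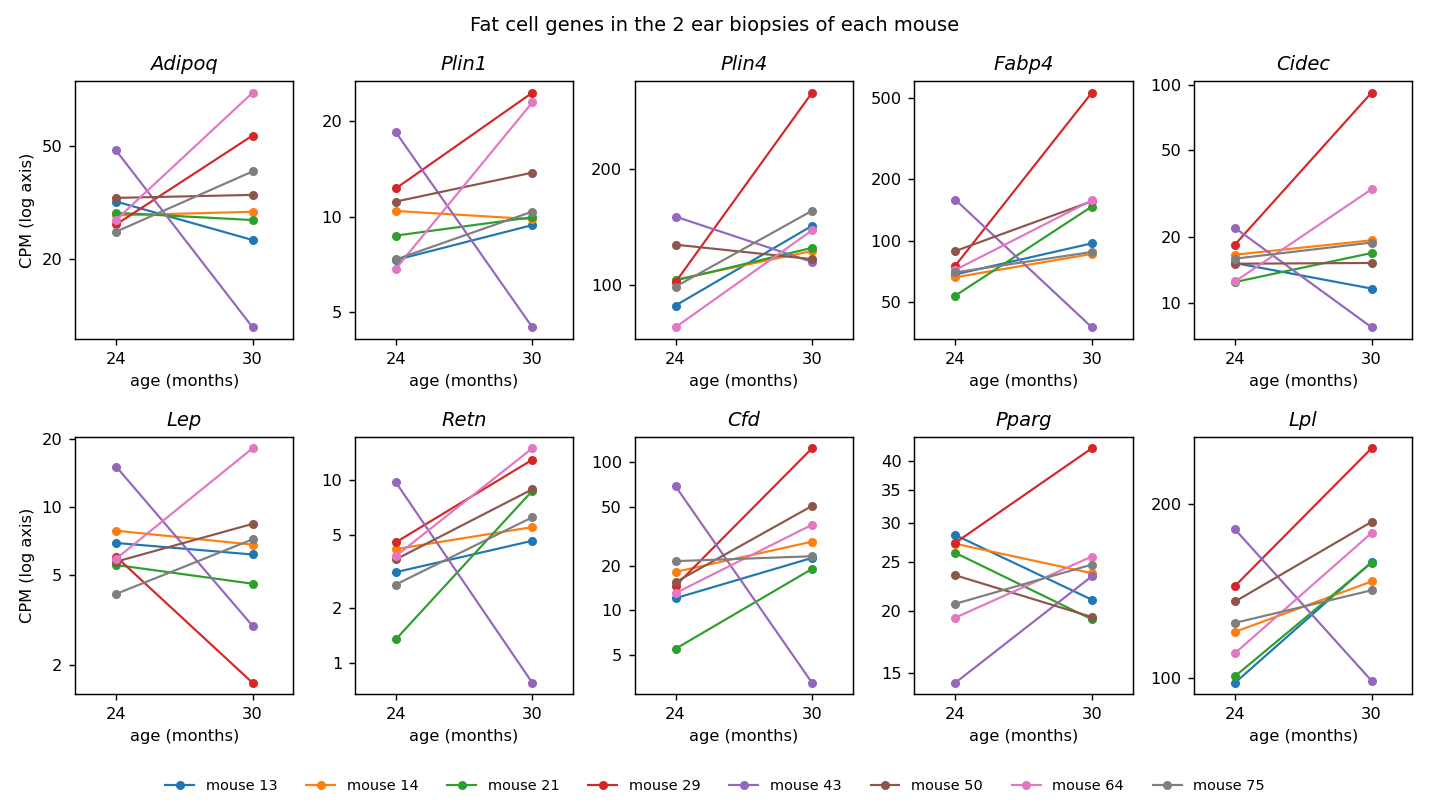
Level of each fat cell gene at 24 and 30 months, in TMM-scaled CPM on a log axis, with 1 panel per gene, 1 point per library and a line joining the biopsies of a mouse. The line of mouse 43 falls from the highest to the lowest level in 8 panels. For Lep it falls from the highest level to 2.97 CPM, above mouse 29 at 1.66 CPM. For Pparg it rises from the lowest level, 14.3 CPM, to 23.4 CPM.

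The droplet coat genes gave different pictures. Plin1 (ENSMUSG00000030546, GRCm38 chromosome 7, 79720218 to 79732903, minus strand) codes for perilipin 1, which coats the droplet and gates lipolysis. Its level ranged from 6.86 to 18.4 CPM at 24 months (median 9.56) and from 4.50 to 24.4 CPM at 30 months (median 10.2). The ages overlapped over most of their range, and mouse 43 was highest at 24 and lowest at 30 months. In 6 of 8 mice Plin1 was higher at 30 months, with a log2 fold change of 0.28 (SE 0.32, edgeR adjusted p = 0.729), 0.57 without mouse 43, 0.17 without mouse 29 and 0.074 without mouse 64. Cidec (ENSMUSG00000030278, chromosome 6, 113424634 to 113435760, minus strand), whose product enlarges droplets by fusing them, ranged from 12.5 to 22.1 CPM at 24 months (median 15.6) and from 7.76 to 91.8 CPM at 30 months (median 17.9). The value of 91.8 belonged to mouse 29, the next highest of all 16 libraries being 33.2 CPM. Its log2 fold change was 0.34 (SE 0.35, edgeR adjusted p = 0.699), 0.59 without mouse 43, 0.070 without mouse 29 and 0.18 without mouse 64.

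Plin4 (ENSMUSG00000002831, chromosome 17, 56100591 to 56109803, minus strand) codes for perilipin 4, which coats small nascent droplets. It shared 17 exon bases (0.294%) with Hdgfl2 on the opposite strand, and the library kit does not mark strand, so reads there could belong to either. Plin4 ranged from 77.8 to 150 CPM at 24 months (median 102) and from 115 to 314 CPM at 30 months (median 132). Among the mice, 6 were higher at 30 months, mice 43 and 50 lower, and the lowest 30-month biopsy lay above the 24-month median. The log2 fold change was 0.47 (SE 0.19), with an unadjusted p of 0.0305 and an adjusted p of 0.359 in the edgeR fit, and it was 0.31 without mouse 29.

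Among the genes of fatty acid supply, Lpl (ENSMUSG00000015568, chromosome 8, 68880491 to 68907448, plus strand), the lipoprotein lipase of the capillary wall, ranged from 98.1 to 181 CPM at 24 months (median 122) and from 98.9 to 250 CPM at 30 months (median 159). Mouse 43 was the highest at 24 months and the lowest at 30 months, and the other 7 mice were all higher at 30 months. The log2 fold change of Lpl was 0.37 (SE 0.16), with an unadjusted p of 0.0470 and an adjusted p of 0.404 in edgeR. Fabp4 (ENSMUSG00000062515, chromosome 3, 10204088 to 10208576, minus strand), which carries fatty acids inside the cell, ranged from 53.7 to 159 CPM at 24 months (median 70.9) and from 37.6 to 532 CPM at 30 months (median 122). Again mouse 43 alone was lower at 30 months, and the highest value, in mouse 29, was 7.05-fold its own 24-month level. The log2 fold change of Fabp4 was 0.71 (SE 0.41, edgeR adjusted p = 0.509), 1.04 without mouse 43 and 0.42 without mouse 29.

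The secreted products also overlapped between the ages. Adipoq (ENSMUSG00000022878, chromosome 16, 23146536 to 23158028, plus strand), the hormone adiponectin, ranged from 24.9 to 48.0 CPM at 24 months (median 28.7) and from 11.5 to 76.6 CPM at 30 months (median 31.4). Of the 24-month biopsies, 7 lay between 24.9 and 32.8 CPM and that of mouse 43 at 48.0, whereas the 30-month biopsies lay on both sides of this range. Adipoq was higher at 30 months in 5 mice, with a log2 fold change of 0.12 (SE 0.32, edgeR adjusted p = 0.896).

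Lep (ENSMUSG00000059201, chromosome 6, 29060220 to 29073877, plus strand), the satiety hormone leptin, ranged from 4.11 to 15.1 CPM at 24 months (median 5.95) and from 1.66 to 18.1 CPM at 30 months (median 6.47). It was the only one of the 10 with a log2 fold change below 0, at -0.19 (SE 0.40, edgeR adjusted p = 0.862), and 3 mice were higher. The lowest value belonged to mouse 29 and the highest to mouse 64, both at 30 months.

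Retn (ENSMUSG00000012705, chromosome 8, 3655770 to 3660110, plus strand), the adipokine resistin, ranged from 1.35 to 9.69 CPM at 24 months (median 3.75) and from 0.780 to 14.8 CPM at 30 months (median 7.47). Cfd (ENSMUSG00000061780, chromosome 10, 79890853 to 79892655, plus strand), the complement protease adipsin, ranged from 5.49 to 69.1 CPM at 24 months (median 15.1) and from 3.23 to 125 CPM at 30 months (median 26.2). Both were higher at 30 months in every mouse but mouse 43. There Retn was 11.5-fold and Cfd 20.9-fold lower at 30 months. The log2 fold changes were the highest of the 10, 0.94 for Retn (SE 0.54, edgeR adjusted p = 0.503) and 0.95 for Cfd (SE 0.64, edgeR adjusted p = 0.559). Without mouse 43 they were 1.35 and 1.39, and without mouse 29 they were 0.84 and 0.63.

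Pparg (ENSMUSG00000000440, chromosome 6, 115360951 to 115490399, plus strand), the transcription factor, differed least. Its level ranged from 14.3 to 28.4 CPM at 24 months (median 24.9) and from 19.2 to 42.4 CPM at 30 months (median 23.6). In 4 mice it was higher and in 4 lower, with a log2 fold change of 0.08 (SE 0.15, edgeR adjusted p = 0.836). In mouse 43, where the other 9 genes were lower at 30 months, Pparg was 1.63-fold higher.

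**Figure D2:**
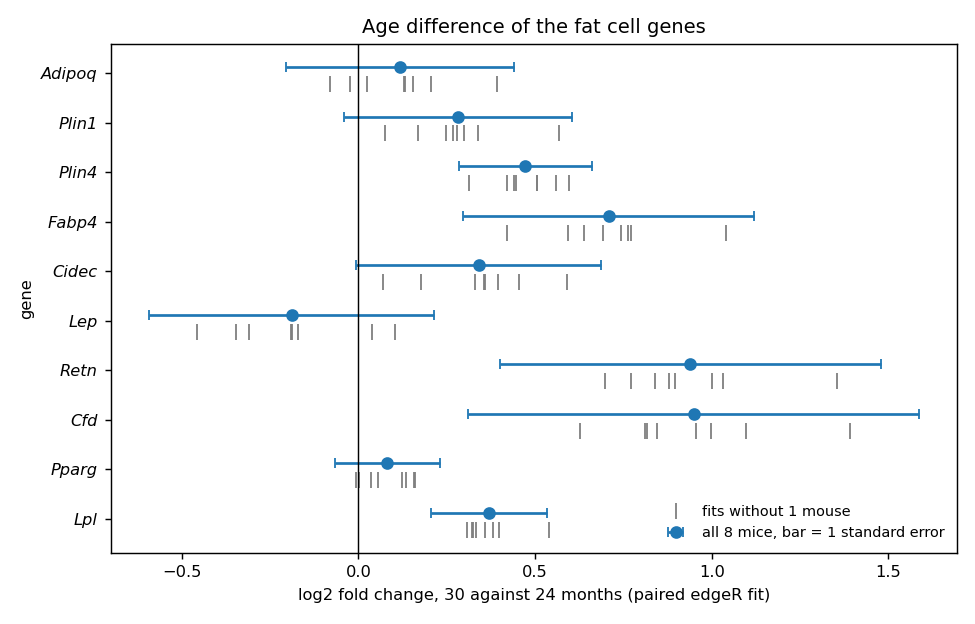
Log2 fold change of each fat cell gene, 30 against 24 months, from the paired edgeR fit (points, bars of 1 standard error) and from the 8 fits that each leave out 1 mouse (ticks). Ticks of Adipoq, Lep and Pparg lie on both sides of 0, and the furthest tick to the right is that without mouse 43 for every gene but Pparg.

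The spread between mice was wide. The SD of the within-mouse log2 change was at or above the 95th percentile of all genes tested for 7 of the 10, with Cfd at percentile 99.6, Retn at 99.3 and Fabp4 at 97.6, while Plin4 stood at 82.1, Lpl at 76.8 and Pparg at 71.3. The median SD over all genes was 0.31. Without mouse 43, 1 of the 10 (Lep, at 95.9) was at or above the 95th percentile, with Cfd at 94.2 and Lpl at 33.9, while 6 were without mouse 29 and 5 without mouse 64. Between mice, the SD of log2 CPM was larger at 30 than at 24 months for 10 of 10 genes, beside 78.8% of all genes. Without mouse 29 it was larger for 7 of 10, beside 70.8% of all genes.

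By animal, all 10 genes were higher at 30 months in mice 64 and 75, with median log2 changes of 1.44 and 0.41, where 50.8% of all genes were higher in each mouse. In mouse 29, 9 of 10 were higher (median 1.26), and in mouse 50, 8 of 10 (median 0.38), beside 49.7% and 46.6% of all genes. Mice 14 and 21 each had 7 of 10 higher (medians 0.23 and 0.36, beside 48.1% and 50.4%), and mouse 13 had 6 (median 0.43, beside 47% of all genes). Mouse 43 had 1 of 10 higher (median -2.04), beside 50.9% of all genes. Changes of more than 2-fold were upward for 7 genes in mouse 64 (1.73% of all genes) and for 6 in mouse 29 (4.96%), and downward for 7 in mouse 43 (5.07%).

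**Figure D3:**
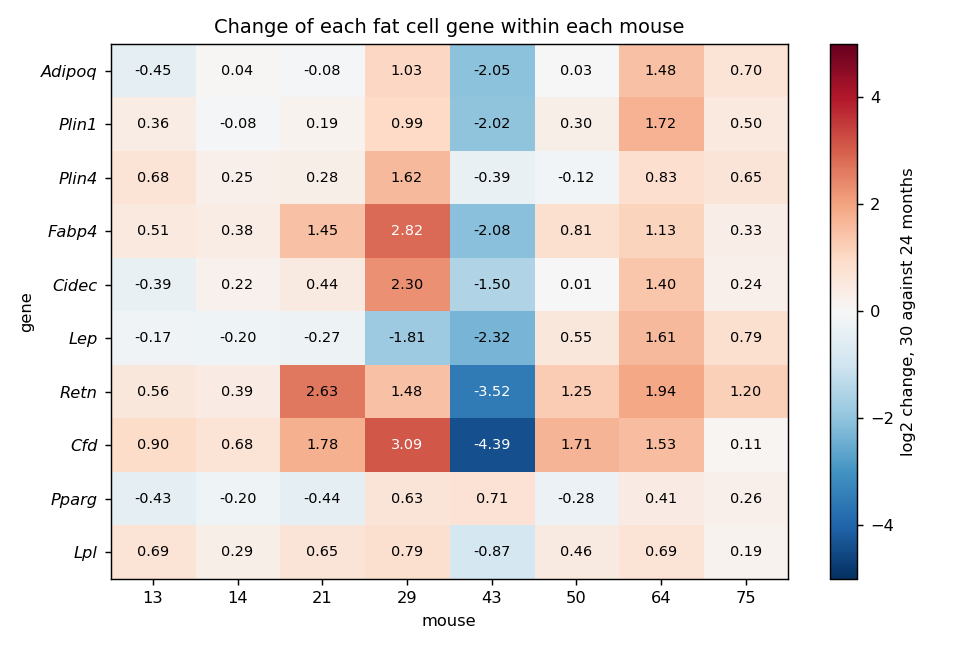
Log2 change of each fat cell gene (rows) in each mouse (columns), 30 against 24 months, in TMM-scaled CPM with a prior count, with red for higher and blue for lower at 30 months. The column of mouse 43 is blue except for Pparg at 0.71, and that of mouse 29 is red except for Lep at -1.81.

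With mouse 43 left out, 6 of the 10 genes had an unadjusted p under 0.05 with a higher level at 30 months, beside 8.49% of all genes, and the lowest adjusted p was that of Lpl (0.0878, edgeR). Without mouse 29, mouse 64, mouse 13 or mouse 75 the number was 0. The genes higher at this level in those fits were 673 of 20130, 971 of 20164, 1000 of 20075 and 730 of 20173, in that order. The log2 fold change of Adipoq was -0.023 without mouse 29 and -0.082 without mouse 64, that of Lep was 0.038 without mouse 29 and 0.10 without mouse 43, and that of Pparg was -0.0074 without mouse 43.

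Over the 16 libraries most fat cell genes followed each other. The Pearson correlation of log2 CPM with the mean of the other 9 genes, standardised, was 0.95 for Plin1, 0.90 for Fabp4, 0.89 for Cidec and for Cfd, 0.88 for Retn and for Lpl, 0.84 for Adipoq and 0.71 for Plin4. It was 0.16 for Pparg and 0.03 for Lep. Without mouse 29 that of Lep was 0.85, that of Pparg -0.33 and that of Plin4 0.52. Without mouse 43 the correlation was -0.26 for Lep, 0.48 for Pparg and 0.78 to 0.93 for the other 8. The 16 points are pairs of biopsies from 8 mice and share their library sizes, so these values are descriptive.

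Outside the list, the 10 genes most like the mean of the fat cell genes, by the same correlation over the 16 libraries, were Aqp7 (0.93), Tshr (0.92), Mrap (0.92), Hp (0.92), Cyp2e1 (0.90), Sult1a1 (0.90), Acvr1c (0.90), Il18 (0.89), Stc2 (0.89) and Serpina3c (0.89). Aqp7 codes for the glycerol channel of fat cells, Tshr for the receptor of thyrotropin, Mrap for a partner of melanocortin receptors and Hp for haptoglobin. Without mouse 29 the correlations ran from 0.83 for Serpina3c to 0.94 for Tshr, and without mouse 43 from 0.85 for Serpina3c to 0.95 for Mrap. Hp ranged from 18.0 to 54.6 CPM at 24 months (median 26.4) and from 11.8 to 162 CPM at 30 months (median 44.7), and 7 of 8 mice were higher.

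Lists of surrounding pathways were read from the same fit. Of 16 tested genes for other droplet coats and lipolysis, 13 had a log2 fold change above 0 (median 0.13), and at an unadjusted p under 0.05 Hilpda, which restrains lipolysis, was higher (log2 fold change 0.48, SE 0.17, edgeR adjusted p = 0.322) and Abhd5, the co-activator of the triglyceride lipase, was lower (-0.19, SE 0.07, edgeR adjusted p = 0.321). Mgll, the monoglyceride lipase and the most abundant of them, was at 0.00 (SE 0.18). Of 13 genes of fatty acid uptake and triglyceride synthesis, 8 were above 0 (median 0.23). Acsl1, which activates fatty acids, and Dgat2, which completes triglyceride synthesis, were lower at -0.22 (SE 0.07, edgeR adjusted p = 0.303) and -0.23 (SE 0.08, edgeR adjusted p = 0.312).

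For de novo fatty acid synthesis 5 of 10 were above 0 (median 0.02), with Scd1, the desaturase, at 0.05 (SE 0.20). Among the partners of lipoprotein lipase 4 of 7 were above 0 (median 0.19), and Gpihbp1, which anchors the enzyme on endothelium, had a log2 fold change of 1.01 (SE 0.42, edgeR adjusted p = 0.375) and was higher in 7 of 8 mice. Gpihbp1 reached 31.4 CPM in mouse 29 at 30 months, against at most 7.11 elsewhere. Of 16 partners of PPARG in transcription 11 were above 0 (median 0.07), and Cebpb, of the C/EBP family, was at 0.24 (SE 0.07, edgeR adjusted p = 0.278). Other secreted products and receptors had 10 of 17 above 0 (median 0.04), with Nampt at 0.21 (SE 0.09, edgeR adjusted p = 0.390). Of 7 tested brown and beige fat genes 4 were above 0 (median 0.11). No gene of these lists passed an adjusted p of 0.05. In mouse 43, where the summed fat cell genes had a log2 change of -1.17, the changes of these list sums went both ways. They were 1.15 for synthesis, 0.59 for droplets and lipolysis, 0.43 for uptake, 0.44 for brown and beige fat and 0.16 for PPARG partners. Those for lipoprotein lipase partners and for other secreted products and receptors were -0.18 and -0.17. Which cells these transcripts came from was not tested.

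The 30-month biopsy of mouse 29 also held high levels of other genes of lipid handling, which were picked after their values were seen. Plin2, another droplet coat, was at 467 CPM against at most 185 in the other 15 libraries, and Pnpla2, the triglyceride lipase, at 383 against 123. Cd36, a fatty acid transporter, was at 527 against 221, and Slc27a1, another, at 242 against 72.2. Angptl4, an inhibitor of lipoprotein lipase, was at 77.2 CPM against at most 5.86, and Pdk4, which blocks pyruvate oxidation, at 156 against 47.0. Apoc3, an apolipoprotein, was at 6.76 CPM against at most 0.178. Not all of the picked genes stood apart. Fgf21, at 0.104 CPM, lay inside the range of the other libraries (0 to 0.219 CPM). Cpt1a, of fatty acid oxidation in mitochondria, was at 164 CPM against at most 159, Cidea, a relative of Cidec, at 174 against 165, and G0s2, an inhibitor of the triglyceride lipase, at 10.9, the lowest of the 16 libraries. In the same library Lep was at 1.66 CPM, the lowest of the 16, and Adipoq at 54.2 ranked second.

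**Figure D4:**
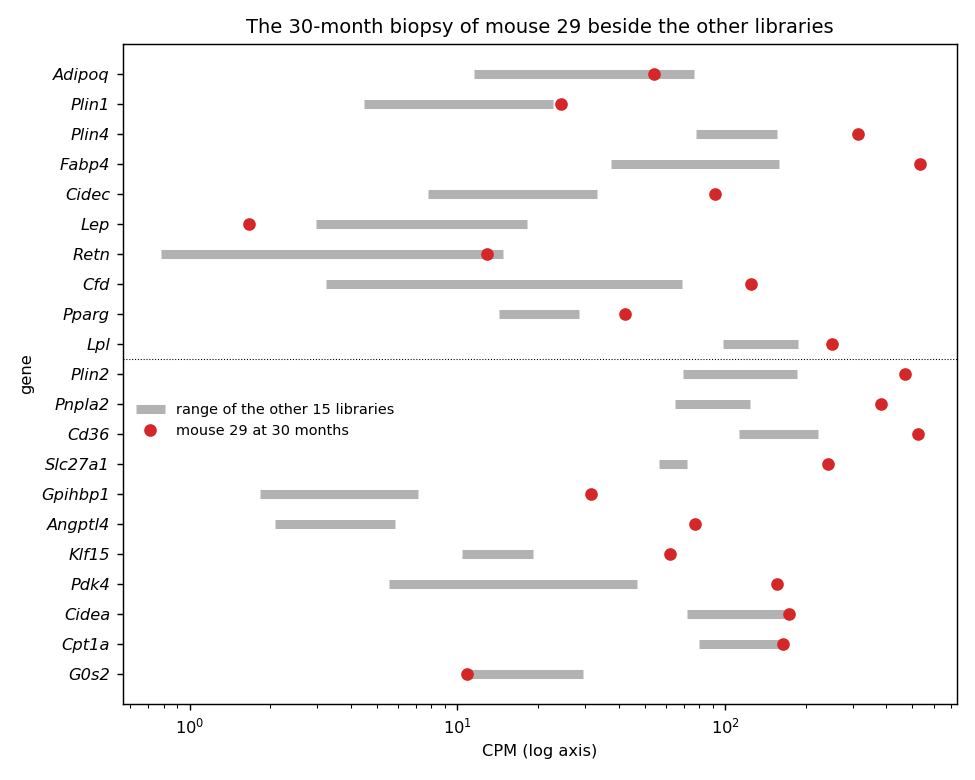
Level in the 30-month biopsy of mouse 29 (red points) and the range of the other 15 libraries (grey bars), in TMM-scaled CPM on a log axis, for the 10 fat cell genes above the dotted line and for 11 genes of lipid handling below it, which except for Gpihbp1 and Klf15 were picked after their values were seen. Adipoq and Retn lie inside the range, Lep (1.66 CPM) and G0s2 (10.9 CPM) lie below it, and the other points lie above it, Cidea and Cpt1a by little.

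Markers of other cell types also differed between the biopsies. All 9 skeletal muscle markers had a log2 fold change above 0 (median 0.93), none with an unadjusted p under 0.05, and they summed to between 840 and 9789 CPM at 24 months and between 1209 and 7766 CPM at 30 months. In mouse 43 their sum had a log2 change of -3.02, beside -1.17 for the summed fat cell genes, and in mouse 64 of 1.22 beside 1.01. In mouse 13, though, it was 3.01 beside 0.47, and in mouse 29 it was -0.24 beside 1.75.

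Sebaceous gland markers (8 of 8 tested) summed to 733 to 1796 CPM at 24 months and 1142 to 2279 CPM at 30 months, and in mouse 43 the log2 change was 1.64. In mouse 43 Pparg, alone of the fat cell genes, was higher (log2 change 0.71). In mouse 29 Pparg was higher (0.63) and the sebaceous gland sum lower (-0.12). In the other mice both went the same way, as in mouse 64 with 0.41 for Pparg and 0.07 for the sum. Whether these changes are linked was not tested. Endothelial markers were above 0 in 9 of 9 (median log2 fold change 0.51), with sums of 142 to 200 CPM at 24 months and 150 to 401 CPM at 30 months. Of the 9, 5 were higher at an unadjusted p under 0.05 in edgeR, beside 4.83% of all genes. The log2 change of their sum was 1.25 in mouse 29 and -0.42 in mouse 43, but -0.11 in mouse 64 (fat cell genes 1.01) and 1.22 in mouse 50 (fat cell genes 0.41). Cartilage markers were below 0 in 9 of 9 tested (median -0.46), with sums of 171 to 287 CPM at 24 months and 136 to 211 CPM at 30 months. Of these 9, 6 were lower at an unadjusted p under 0.05 in edgeR, beside 7.37% of all genes. Red blood cell genes (5 of 5) summed to 70.0 to 252 CPM at 24 months and 52.3 to 315 CPM at 30 months, with a log2 change of -2.27 in mouse 43 and 2.17 in mouse 64, but -0.67 in mouse 13 and -0.85 in mouse 21, where the fat cell genes were at 0.47 and 0.63. Of the remaining lists, 2 of 6 preadipocyte markers (median -0.20), 0 of 6 fibroblast markers (median -0.53), 8 of 9 macrophage markers (median 0.25), 2 of 8 keratinocyte markers (median -0.18) and 4 of 5 nerve and Schwann cell markers (median 0.01) had a log2 fold change above 0. The part of these cells in the values of the fat cell genes was not tested.

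**Figure D5:**
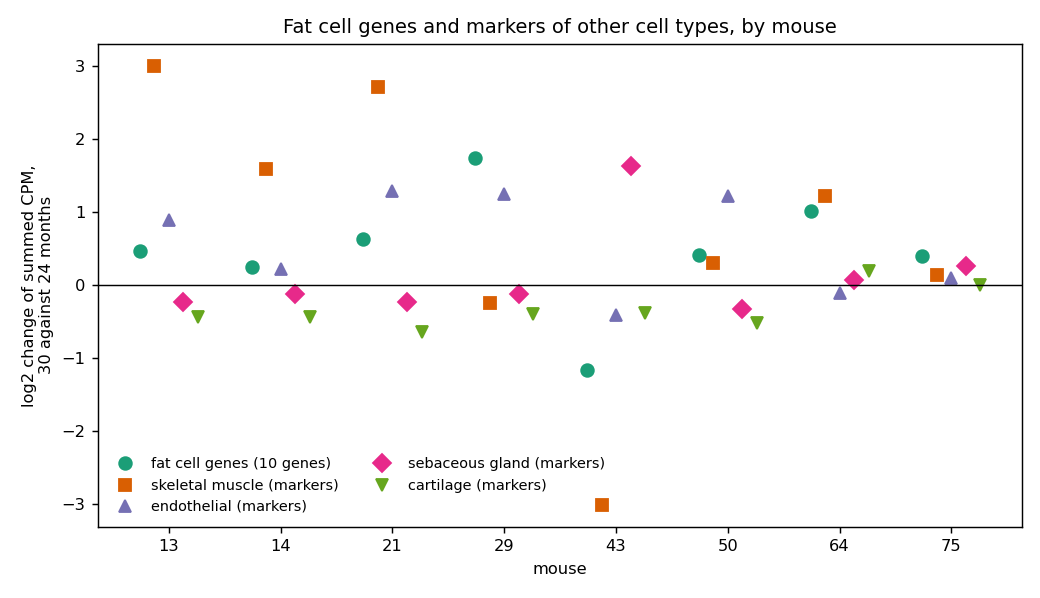
Log2 change of summed TMM-scaled CPM, 30 against 24 months, in each mouse for the 10 fat cell genes and for marker lists of skeletal muscle, endothelium, sebaceous gland and cartilage. Mouse 43 has the lowest fat cell value (-1.17) and the highest sebaceous gland value (1.64), and mouse 29 the highest fat cell value (1.75).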

How the data were processed

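Total RNA from 16 ear biopsies was sequenced with the TruSeq RNA kit v2. The authors aligned the reads to GRCm38 (mm10), and the submitters' processing notes list CASAVA 1.8.4, TopHat2 2.1.0 and HTSeq 0.6.1p1. The deposited values are raw counts per gene, not normalized. Whether strand was used in counting is not given in the sources used here. The last 5 lines of the table are totals without a gene, hold 18.7% to 21.1% of the reads and were left out. Symbols and positions came from GENCODE M21, which held 45143 of the 45706 identifiers.

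Age was tested on the counts with edgeR 4.0.16 under R 4.3.3 (TMM, filterByExpr by age, quasi-likelihood F test) with a term for each mouse, and Benjamini-Hochberg adjusted over 20116 genes, threshold 0.05. Both biopsies of a pair come from 1 animal, so the mouse is a block. Residuals around the age means correlated by a median of -0.026 for biopsies of 1 mouse and -0.0044 for biopsies of different mice. Log2 CPM used a prior count of 2. Transcript lengths came from the annotation. The fit was tested on simulated data that had the same spread for every gene and no differences between mice. That test therefore does not show how well the fit detects changes in genes as variable as the fat cell genes. Summaries used Python 3.11.15, numpy 2.4.6 and pandas 2.3.3. Alternatives were DESeq2 size factors, total counts, DESeq2 1.42.0, no low-count filter, no block on the mouse and each mouse left out in turn. The count of fat cell genes with an unadjusted p under 0.05, and the SDs and correlations without single mice, were added after seeing the data.

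The fat cell genes and all lists were chosen with earlier results of these data known. Named genes are the 10 fat cell genes, in each pathway list the most abundant gene and the 2 with the smallest p, and the 10 genes most like the fat cell genes. Of the named pathway genes, the text gives those at an unadjusted p under 0.05 and some of the most abundant. Ucp1 and the further lipid genes given for mouse 29 were chosen once their values were known.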

Additional observations from a re-analysis of the deposited data

Results flagged for a closer look

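Among 8 mice, a value was marked where its gap to the nearest other mouse was large for the range of the group. The levels at each age and the within-mouse change of the 10 genes made 30 groups, of which 8 were marked, where chance marks about 1 in 20, or 1.5 groups. The groups are not independent, since each change is built from the levels and most of the genes followed each other. The 2 counts therefore do not measure an excess over chance.

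Mouse 43 accounted for 6 of the marks. At 24 months its Adipoq level (48.0 CPM) and its Fabp4 level (159 CPM) lay far above the other mice, and at 30 months its Retn level (0.780 CPM) lay far below. Its log2 changes were -3.52 for Retn, -4.39 for Cfd and -0.87 for Lpl, when every other mouse was above 0.

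Mouse 29 accounted for the other 2 marks, with 314 CPM of Plin4 and 42.4 CPM of Pparg at 30 months, where the next highest of the other 15 libraries were at 156 and 28.4 CPM.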

How the results depend on the processing

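Over 130 comparisons of a value with its alternatives for the single genes, 5 changed sign: the log2 fold change of Adipoq was -0.023 without mouse 29 and -0.082 without mouse 64, that of Lep 0.038 without mouse 29 and 0.10 without mouse 43, and that of Pparg -0.0074 without mouse 43. With a mouse left out, Adipoq ranged from -0.082 to 0.39, Lep from -0.46 to 0.10 and Pparg from -0.0074 to 0.16. The number of genes past an adjusted p of 0.05, which was 0 in the paired edgeR fit, was 241 with DESeq2 (1.2% of genes, no fat cell gene among them) and 4 without the replicate block on the mouse. The number of fat cell genes with an unadjusted p under 0.05 was 2 in the paired fit and 4 without the block. It was 0 to 6 when a mouse was left out, with 6 without mouse 43. Of all 20116 genes, 971 were higher and 1483 lower at this level in the paired fit, and 1612 and 1565 without the block. When a mouse was left out, 673 (without mouse 29) to 1710 (without mouse 43) were higher, and 1019 (without mouse 21) to 1887 (without mouse 43) lower. The median log2 fold change of the 10 genes, 0.36 in the paired fit, ranged from 0.24 (without mouse 29) to 0.58 (without mouse 43) when a mouse was left out, and from 0.34 to 0.45 over the alternatives with all mice kept. No alternative brought a fat cell gene past the adjusted threshold. The fits rest on 8 pairs from 1 strain and 1 sex, sampled at late ages only. The p-values of the paired fits weigh the within-mouse change against its variation over these mice, drawn towards that of other genes. The SE given with edgeR values is the log2 fold change divided by the square root of the F statistic, so it shares this. A p that misses the threshold does not show that the levels were equal.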
